A study of Mus musculus with 8 samples.

Results

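Immediate early genes were followed in hypothalamus RNA from mouse pups whose microglia had been depleted with PLX3397 and from pups given vehicle. The genes were chosen by name: Fos, Fosb, Jun, Junb, Egr1, Egr2, Arc, Nr4a1, Npas4 and Dusp1, 10 of the 55401 genes in the expression table. All 10 passed the filter on low values (a mean of at least 0.5 FPKM, the fragments assigned to a gene scaled to its length and to depth, over the 8 libraries), which kept 16894 genes for testing.

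The PLX3397 group held 4 pups gavaged with PLX3397, an inhibitor of the CSF1 receptor on which microglia depend for survival, from postnatal day 9 to 15. The vehicle group held 4 pups gavaged with vehicle over the same days. Hypothalami of both groups were taken at postnatal day 19, and each group was made of 2 females (F1 and F2) and 2 males (M1 and M2), with 1 RNA library per hypothalamus. The labels give no genotype, strain or litter, and a shared library number does not mark a shared animal. Other cells that use the CSF1 receptor are exposed to the drug too, and the interval between the last gavage and tissue collection is part of both groups. The question of the study was what microglia contribute to hypothalamic development after birth, in particular to the AgRP neurons of the arcuate nucleus, which drive feeding.

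Immediate early genes are switched on within minutes of calcium entry, growth factor or stress signalling, from transcription factors that are already present in the cell and without new protein synthesis. Many of their products are transcription factors that act on later genes. Their transcripts are short-lived, so in brain tissue their level is widely used as a record of recent neuronal activity, and it also responds to handling and to the minutes around death and dissection. In the hypothalamus Fos is the usual marker of neurons engaged by fasting, stress or osmotic load.

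Depth was 55900335 to 67487391 assigned reads in the PLX3397 libraries and 54115300 to 60001808 in the vehicle libraries, and mitochondrial genes took 4.87 to 5.36% and 4.51 to 4.88% of them. Csf1r, the gene of the drug's target and a microglial marker, averaged 4.69 ± 2.38 CPM (counts scaled to library size) in PLX3397 hypothalami and 81.0 ± 3.81 CPM in vehicle hypothalami (SD, n = 4 each). In bulk tissue fewer cells of a type and less RNA per cell cannot be told apart. The summed level of 10 hypothalamic marker genes was 727 to 1234 CPM in PLX3397 and 781 to 1058 CPM in vehicle libraries. Vehicle F1 carried 3044 CPM of pituitary markers, against 8.54 to 14.5 CPM in PLX3397 libraries and 4.90 to 10.4 CPM in the other vehicle libraries. Vehicle M2 stood apart in the genes described here, and the values it bears on most are given with and without it.

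None of the 10 immediate early genes differed between PLX3397 and vehicle hypothalami at an adjusted p under 0.05 (edgeR quasi-likelihood test with sex as a covariate, Benjamini-Hochberg adjustment over all 16894 genes). The same test called 362 genes, 2.14% of those tested, 52 of them higher and 310 lower in PLX3397. At an unadjusted p under 0.05 the count was 1 of 10, which was Arc, while 2743 of all tested genes, 16.2%, passed that level, 7.24% higher and 9% lower. DESeq2 called 1 of the 10, again Arc, and 1099 of all tested genes, 6.51%. The spread between libraries was wide for most of the genes, and 1 vehicle library was low in nearly all of them. Levels are given below as CPM on library sizes scaled by TMM (trimmed mean of M values), in the order F1, F2, M1 and M2.

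Fos and Fosb encode the FOS-type partners of the AP-1 transcription factor, which bind DNA only as a pair with a JUN protein. Fos stood at 49.7, 49.4, 44.0 and 55.5 CPM in the PLX3397 libraries, against 53.1, 52.3, 44.8 and 16.5 CPM in the vehicle libraries. The first 3 vehicle values lay inside or near the PLX3397 range, and vehicle M2 lay far below all others. The log2 fold change of PLX3397 over vehicle was 0.30 with a standard error of 0.31 (edgeR adjusted p = 0.686), and without vehicle M2 it was 0.01.

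Fosb, whose truncated splice form builds up under repeated stimulation, stood at 10.1, 8.05, 9.19 and 12.7 CPM in PLX3397 and at 9.44, 8.16, 5.03 and 1.71 CPM in vehicle libraries. The females of both groups overlapped, and both PLX3397 males exceeded both vehicle males. With 2 libraries on each side such an order often arises by chance. Its log2 fold change of 0.86 ± 0.44 (standard error) was the highest of the 10 genes but missed the threshold (edgeR adjusted p = 0.399). Without vehicle M2 it was 0.45.

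Jun, the JUN-type partner that FOS proteins need, stood at 58.1, 54.2, 48.1 and 49.6 CPM in PLX3397 and 52.7, 56.4, 48.3 and 44.7 CPM in vehicle libraries. The groups overlapped over most of their range (log2 fold change 0.06 ± 0.05, edgeR adjusted p = 0.650). Junb, a JUN relative that tempers the activity of JUN, stood at 16.8, 19.8, 18.6 and 27.0 CPM in PLX3397 and at 23.7, 26.4, 21.4 and 11.7 CPM in vehicle libraries. PLX3397 M2 was its highest library and vehicle M2 its lowest, and the log2 fold change was 0.01 ± 0.26 (edgeR adjusted p = 0.993) with vehicle M2 and −0.24 without it.

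**Figure D1:**
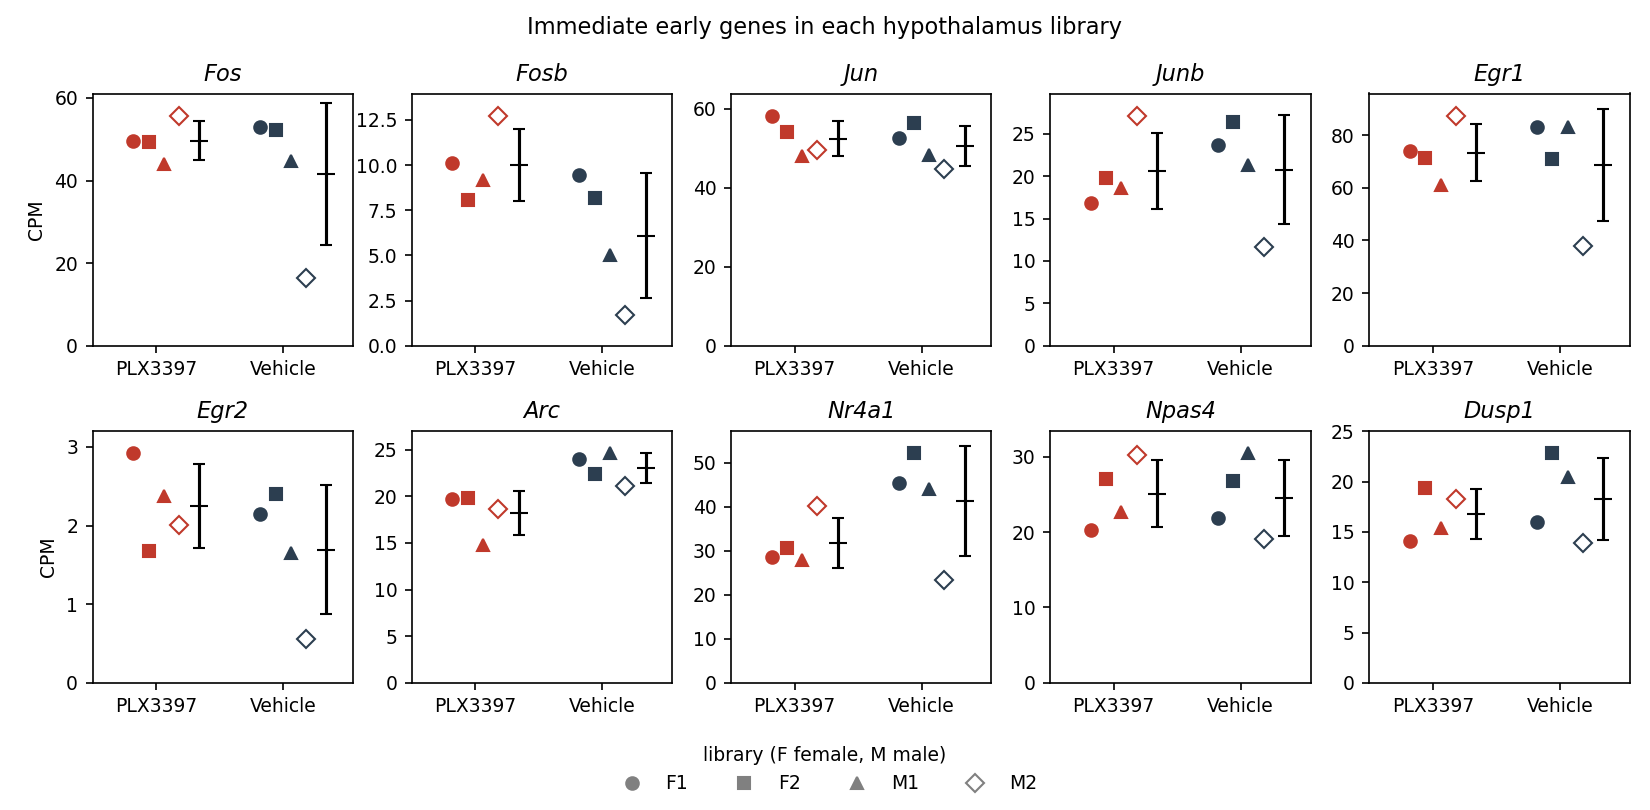
CPM of the 10 genes in each library, with PLX3397 in red on the left and vehicle in dark blue on the right of each panel; each point is 1 hypothalamus, open diamonds are the M2 libraries, and the black dash and bar are the group mean and SD (n = 4). For Fos, vehicle M2 lies at 16.5 CPM, below the other 7 libraries (44.0 to 55.5 CPM), and for Arc all 4 PLX3397 points lie below all 4 vehicle points.

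Promoter sequences are shown for 3 genes that were lowest in vehicle M2 by the widest ratios, Fosb, Egr2 and Fos, and for Jun, where the ratio was 1.17-fold. They were picked after these values were seen. They are RefSeq sequences on GRCm38.p6, read 5′ to 3′ on the gene's strand, of the 250 bases before the transcription start (244 for Fosb, where the bases nearest the start lie in an annotated exon). Capitals mark a CRE half-site, TGACG on either strand, the core of the sites that CREB binds, and a CArG box, the site of serum response factor.
Fos, chr12:85473640-85473889, plus strand: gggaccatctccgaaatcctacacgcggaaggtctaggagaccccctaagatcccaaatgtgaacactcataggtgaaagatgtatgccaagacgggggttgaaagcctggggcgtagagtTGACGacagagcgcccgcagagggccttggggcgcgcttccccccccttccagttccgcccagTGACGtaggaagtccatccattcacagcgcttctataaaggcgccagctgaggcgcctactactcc
Fosb, chr7:19310052-19310295, minus strand: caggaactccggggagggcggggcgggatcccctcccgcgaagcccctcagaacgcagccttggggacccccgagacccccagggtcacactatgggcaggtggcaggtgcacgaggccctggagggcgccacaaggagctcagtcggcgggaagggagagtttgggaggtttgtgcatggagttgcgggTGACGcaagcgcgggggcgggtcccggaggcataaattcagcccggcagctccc
Egr2, chr10:67537619-67537868, plus strand: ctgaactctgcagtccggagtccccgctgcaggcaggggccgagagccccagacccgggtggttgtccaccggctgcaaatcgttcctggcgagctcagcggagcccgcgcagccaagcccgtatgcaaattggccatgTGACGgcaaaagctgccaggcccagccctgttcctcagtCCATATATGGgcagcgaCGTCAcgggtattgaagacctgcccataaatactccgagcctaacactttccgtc
Jun, chr4:95052223-95052472, minus strand: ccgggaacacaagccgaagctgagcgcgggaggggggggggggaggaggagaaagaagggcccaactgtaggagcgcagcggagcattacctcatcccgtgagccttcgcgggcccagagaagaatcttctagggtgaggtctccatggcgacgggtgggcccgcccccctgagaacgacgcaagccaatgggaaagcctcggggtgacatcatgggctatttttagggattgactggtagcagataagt

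The sequence table held 8 of the 10 genes, without Egr1 and Arc. A CRE half-site was found in 7 of these 8 windows (all but that of Jun), against 17.9% of 27018 promoter windows of the same length. Fos had 2 half-sites, at 129 to 125 and 66 to 62 bases before its start, Fosb had 1 and Egr2 had 2. Half-sites also stood in the windows of Dusp1 and Npas4, for which the other vehicle libraries averaged 1.42-fold and 1.38-fold above vehicle M2. Whether the sites bear on the vehicle M2 values was not tested. The full CRE, TGACGTCA, which contains a half-site on each strand, was found in the window of Dusp1 alone, against 1.62% of all windows. The CArG box was found in that of Egr2 alone, at 72 to 63 bases before its start, against 1.40% of all windows. The AP-1 site TGANTCA was found in none of the 8, against 6.87%. In the window of Npas4 all 250 bases, and in that of Dusp1 49 bases, lie in annotated exons of the gene in GENCODE. The CArG box known in the Fos promoter lies farther from the start than this window, and these matches describe letters and not binding.

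Egr1 and Egr2 encode zinc finger factors of the early growth response family. Egr1 is high at rest in many neurons, and Egr2 is also the master regulator of myelination in Schwann cells. Egr1 stood at 74.1, 71.2, 61.0 and 87.1 CPM in PLX3397 libraries, against 82.9, 70.8, 83.0 and 37.9 CPM in vehicle libraries. Vehicle M2 was again below every other library, and the remaining 7 overlapped (log2 fold change 0.11 ± 0.24, edgeR adjusted p = 0.873, and −0.11 without vehicle M2).

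Egr2 was the rarest of the 10, at 2.92, 1.67, 2.38 and 2.01 CPM in PLX3397 and 2.15, 2.41, 1.65 and 0.553 CPM in vehicle libraries. The vehicle M2 value rests on 33 reads. The groups overlapped apart from that library. The log2 fold change was 0.49 ± 0.39 (edgeR adjusted p = 0.594) and 0.16 without vehicle M2.

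Nr4a1 encodes an orphan nuclear receptor, NUR77, induced by calcium and by stress hormones of the pituitary axis. It stood at 28.5, 30.7, 27.8 and 40.1 CPM in PLX3397 libraries, against 45.5, 52.2, 44.1 and 23.3 CPM in vehicle libraries. Every PLX3397 library was below 3 of the vehicle libraries and above the fourth, vehicle M2. The log2 fold change was −0.36 ± 0.24 (edgeR adjusted p = 0.530). Without vehicle M2 it was −0.59 (edgeR adjusted p = 0.185), so the threshold was missed in both fits while the value moved by over 1.5 times.

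Npas4, a transcription factor that responds to calcium entry in neurons and regulates inhibitory synapses, stood at 20.3, 27.1, 22.6 and 30.3 CPM in PLX3397 and 21.8, 26.8, 30.4 and 19.1 CPM in vehicle libraries. The 2 groups covered nearly the same range (log2 fold change 0.03 ± 0.18, edgeR adjusted p = 0.959, and −0.10 without vehicle M2).

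Arc encodes a synaptic protein that moves AMPA receptors into endosomes and forms capsid-like shells. It was the only member of the 10 whose groups did not overlap: 19.7, 19.8, 14.8 and 18.6 CPM in PLX3397 libraries, against 24.1, 22.5, 24.6 and 21.1 CPM in vehicle libraries. All 4 PLX3397 libraries were lower than the lowest vehicle library, as they were for 1068 tested genes, 6.32% of all. In the opposite direction 820 genes, 4.85%, had groups that did not overlap, and none of the 10 was among them. The fold change was 0.788 (log2 −0.34 ± 0.10). The edgeR p of 0.00892 became 0.146 after adjustment over all genes, and DESeq2 gave an adjusted p of 0.0381. The adjusted p over all settings tried ran between 0.0381 and 0.330, with DESeq2 the only setting under 0.05. An exact two-sided permutation test over the 8 libraries, without sex, gave p = 0.0286, the smallest that 4 against 4 allows. Any gene whose groups do not overlap takes this value, so it adds nothing to the non-overlap. The sum of 6 neuronal markers was 3561 to 3841 CPM in PLX3397 and 3363 to 3490 CPM in vehicle libraries, also apart but in the opposite direction, and its part in the Arc values was not tested. Arc differed from the other members in that vehicle M2 was not its lowest library. Without vehicle M2 the log2 fold change was −0.37 (edgeR adjusted p = 0.263).

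Dusp1 encodes a phosphatase that inactivates MAP kinases and so limits the signal that induces the other genes, and glucocorticoids induce it too. It stood at 14.1, 19.4, 15.4 and 18.2 CPM in PLX3397 and 16.0, 22.8, 20.5 and 13.9 CPM in vehicle libraries, with overlap over most of the range (log2 fold change −0.12 ± 0.18, edgeR adjusted p = 0.796, and −0.24 without vehicle M2). Its annotated span overlaps the tested genes Ergic1 and Gm8225, neither of which lies on its strand. No source states whether counting used strand. Its count is therefore less certain than that of the others, whose spans overlap no other tested gene.

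**Figure D2:**
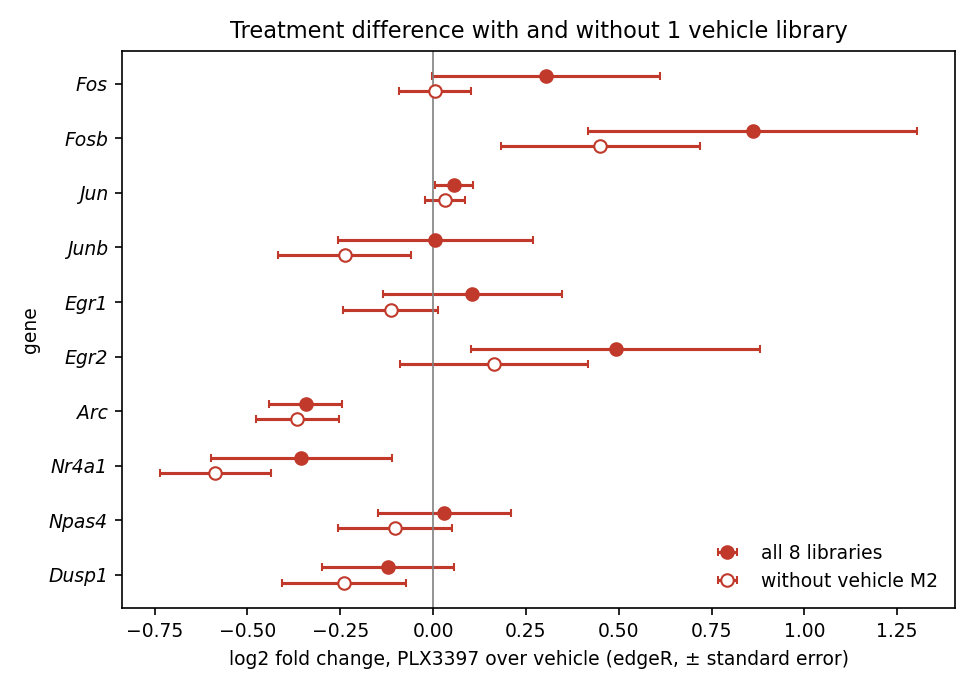
Log2 fold change of PLX3397 over vehicle for each gene, with its standard error, from edgeR with sex as a covariate; filled points use all 8 libraries and open points leave out vehicle M2. Fos lies at 0.30 with all libraries and 0.01 without vehicle M2, Nr4a1 at −0.36 and −0.59, and Arc at −0.34 and −0.37.

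Vehicle M2 was the lowest of the 8 libraries for 9 of the 10 genes, all but Arc. It was the lowest library for 13.9% of all tested genes. It lay below the other 3 vehicle libraries for 10 of 10 genes, against 23.8% of all tested genes. These counts describe a library singled out after its values were seen. For 6 of the genes the mean of the other vehicle libraries was at least 2-fold above vehicle M2: 4.41-fold for Fosb, 3.74-fold for Egr2, 3.04-fold for Fos, 2.08-fold for Egr1, 2.04-fold for Junb and 2.03-fold for Nr4a1. A gap of that size was seen for 418 tested genes, 2.47%. It was 1.42-fold for Dusp1, 1.38-fold for Npas4, 1.17-fold for Jun and 1.12-fold for Arc.

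The other libraries stood closer together. PLX3397 M2 was the highest of the 8 for 4 genes, Fos, Fosb, Junb and Egr1. The mean deviation of the 10 genes from their own means over the 8 libraries, on the log2(CPM + 0.5) scale, was 0.03, 0.04, −0.08 and 0.24 in the PLX3397 libraries and 0.17, 0.25, 0.08 and −0.73 in the vehicle libraries. No vehicle library other than M2 was below the PLX3397 range by that measure.

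**Figure D3:**
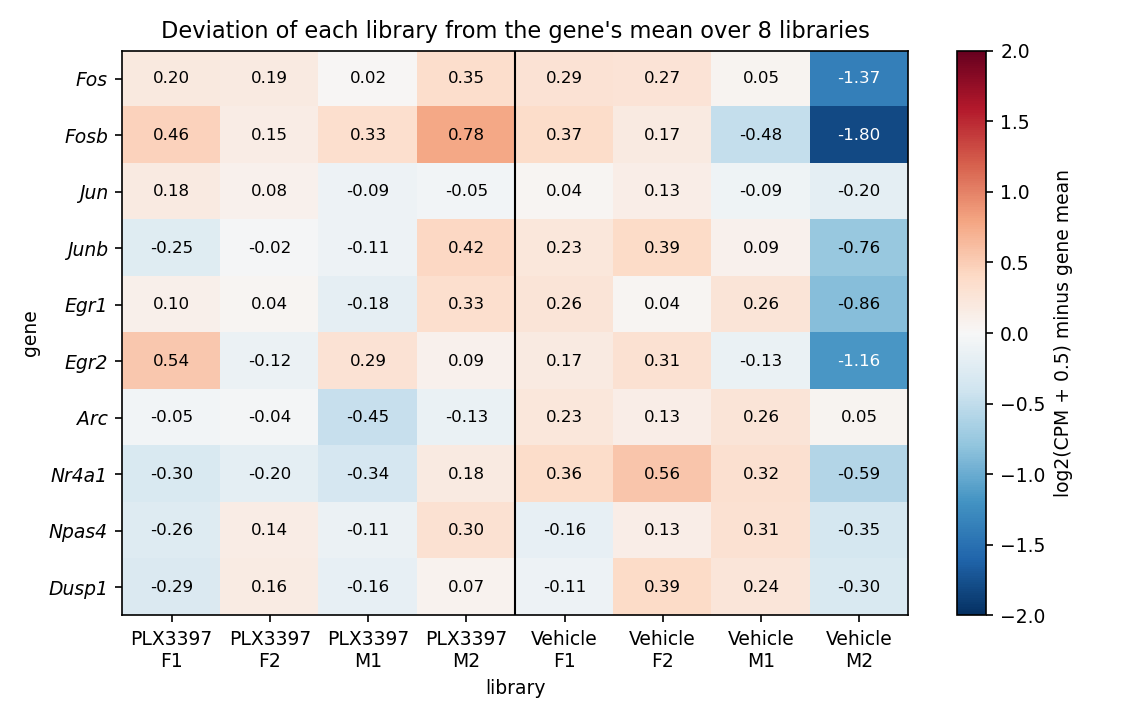
Deviation of each library from the gene's mean over 8 libraries, as log2(CPM + 0.5) minus that mean, with PLX3397 libraries left of the line and vehicle libraries right of it; blue is lower and red higher. Vehicle M2 is blue for 9 genes, to −1.80 for Fosb and −1.37 for Fos, and is 0.05 for Arc.

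Vehicle M2 held 60001808 reads, the most of the vehicle group, and 4.74% of mitochondrial reads. Other values moved with it, and their part in the low levels was not tested. Its 6 oligodendrocyte lineage markers summed to 6708 CPM, the highest of the 8, against 4402 to 5913 CPM in the other vehicle libraries, and none of these markers was at 0. Its 6 neuronal markers summed to 3363 CPM, against 3426 to 3490 CPM in the other vehicle libraries. Its 6 astrocyte markers summed to 2850 CPM, against 2351 to 2710 CPM in the other vehicle libraries. Its 5 endothelial markers summed to 141.5 CPM, against 107.9 to 131.4 CPM in those libraries. Its 5 blood markers summed to 202 CPM, with 198 CPM in vehicle M1 and 28.1 to 93.0 CPM in the remaining libraries. Its 5 markers of the neighbouring thalamus summed to 128 CPM. That sum was 122 CPM in PLX3397 F1 and 114 CPM in vehicle F1. In the remaining libraries the thalamus sum was 209 to 229 CPM. The 8 microglial markers summed to 22.8 to 44.0 CPM in PLX3397 libraries and 244 to 258 CPM in vehicle libraries, 258 CPM of them in vehicle M2.

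The spread between libraries was measured as the residual SD of log2(CPM + 0.5) after treatment and sex. Its median over the 10 genes was 0.42, against 0.14 over all tested genes, and 9 of the 10 lay above that median. Fosb had the widest residual SD, 0.69, at percentile 97.4 of tested genes. Fos followed at 0.55, Egr2 at 0.48, Junb at 0.44, Egr1 at 0.42 and Nr4a1 at 0.42, all above percentile 91. Npas4 and Dusp1 stood at 0.30 and 0.29, Arc at 0.14 (percentile 51.9) and Jun at 0.06 (percentile 14). The low value of Jun depended on removing sex. Within the groups its SD was 0.123 in PLX3397 (percentile 49.4) and 0.145 in vehicle (percentile 54.9). Rare genes have wider counting error. Against the value that edgeR's trend gives for genes of like abundance, the biological coefficient of variation was 1.89 times as large for Fosb and 1.87 times for Fos, and 0.595 times for Jun.

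Without vehicle M2 the residual SD was 0.14 for Fos (percentile 50.8), 0.38 for Fosb, 0.20 for Egr1, 0.22 for Nr4a1, 0.27 for Junb and 0.27 for Egr2, and the median over the 10 genes was 0.23, against 0.14 over all tested genes. The SD of log2(CPM + 0.5) within the PLX3397 group was 0.14 for Fos, against 0.79 in the vehicle group. The SD was smaller in PLX3397 than in vehicle for 9 of the 10 genes, all but Arc, and for 51.2% of all tested genes. That count turned on vehicle M2. With the other 3 vehicle libraries alone, the SD was smaller in PLX3397 for 2 of the 10, Fosb and Dusp1, and for 48.3% of all tested genes. It was then 0.14 in PLX3397 and 0.13 in vehicle for Fos, and 0.24 in PLX3397 and 0.13 in vehicle for Nr4a1.

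**Figure D4:**
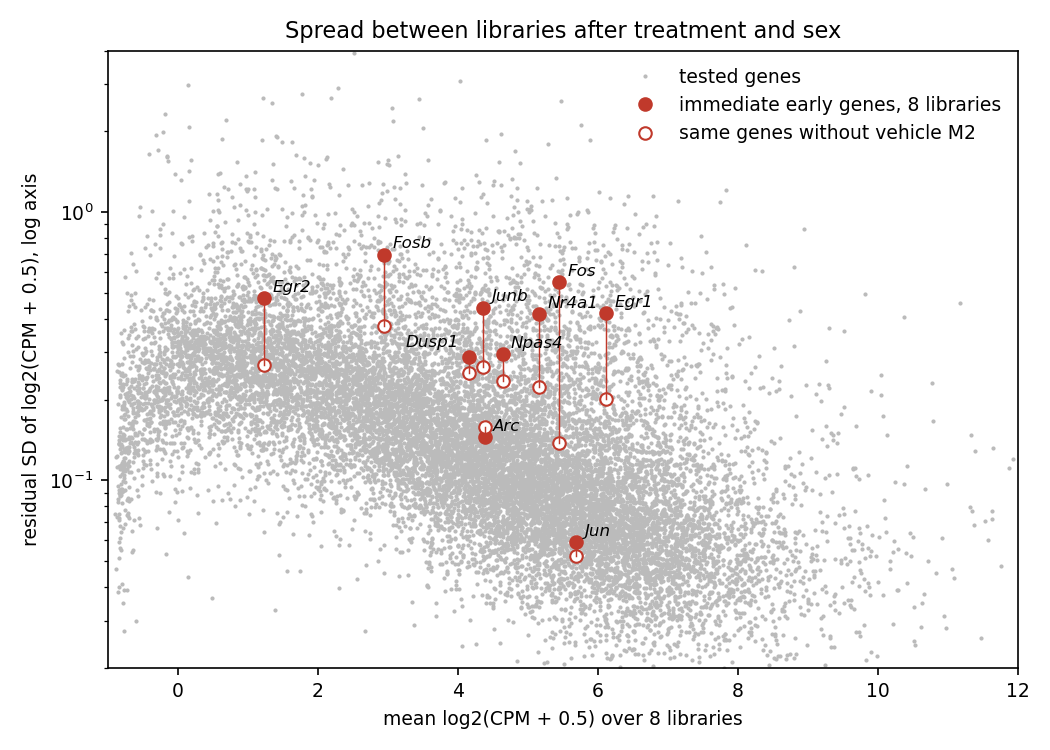
Residual SD of log2(CPM + 0.5) after treatment and sex (log axis) against the mean log2(CPM + 0.5) over 8 libraries; grey points are tested genes, a few of which lie outside the axes, filled red points the 10 genes in all libraries and open points the same genes without vehicle M2. Fos moves to 0.14 from 0.55 when vehicle M2 is left out, while Arc and Jun stay near or below the median of 0.14.

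The 9 other genes were compared with Fos over the 8 libraries by exact permutation tests, with Benjamini-Hochberg adjustment over the 9 relations. Fosb had a Pearson r of 0.937 with Fos (exact p = 0.00816, adjusted p = 0.0367) and a Spearman rho of 0.762 (exact p = 0.0368, adjusted p = 0.156). Without the libraries farthest from the median of Fos, vehicle M2 and PLX3397 M1, its r was 0.889, and without vehicle M2 alone it was 0.643. Junb had an r of 0.860 (exact p = 0.00724, adjusted p = 0.0367) and a rho of 0.810 (exact p = 0.0218, adjusted p = 0.156), and its r was 0.590 without those 2 libraries and 0.661 without vehicle M2 alone. Egr1 had an r of 0.933 (exact p = 0.0136, adjusted p = 0.0408) and a rho of 0.690 (exact p = 0.0694, adjusted p = 0.156), and its r was 0.170 without the 2 libraries, so that the relation rested on them together, and 0.551 without vehicle M2 alone. Arc had an r of −0.025 with Fos (exact p = 0.936, adjusted p = 0.936) and a rho of 0.024 (exact p = 0.977, adjusted p = 0.977). For the other 5 genes r lay between 0.497 and 0.896, no adjusted p of r was below 0.0504, and r lay between −0.148 and 0.358 without the 2 libraries and between 0.087 and 0.442 without vehicle M2 alone. For all 9 genes but Arc, r was lower without vehicle M2 than with it.

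Beyond the 10, the genes most like them were ranked by the Pearson r of log2(CPM + 0.5) with the mean standardized level of the 10 genes over the 8 libraries, among named genes with a mean of at least 1 FPKM. They were Alkbh4 (0.970), Thrb (0.958), Sybu (0.957), Mypopos (0.951), Tor1aip1 (0.942), Dnmbp (0.939), Map2k7 (0.935), Nucb2 (0.935), Fam120c (0.935) and Cflar (0.931). Thrb, which encodes a thyroid hormone receptor, averaged 20.3 CPM in PLX3397 and 18.3 CPM in vehicle libraries, with 5.28 CPM in vehicle M2 and a mean of 22.7 CPM in the other vehicle libraries. Nucb2, the precursor of the satiety peptide nesfatin, averaged 21.9 CPM in PLX3397 and 21.6 CPM in vehicle libraries, with 17.7 CPM in vehicle M2. These r values describe 8 libraries of which 1 stands apart.

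Levels between genes were compared per length, as mean FPKM. The length implied by count and FPKM was 7.13 kilobases for Fosb, whose longest annotated transcript has 3782 exon bases. For Arc it was 3.49 kilobases, against 3055 exon bases, and for Jun 3.64 kilobases, against 3189, a similar and smaller excess. A factor that genes share leaves their order as it is. The level of Fosb relative to the others therefore depends in part on the length used. In PLX3397 libraries the order was Fos at 18.4 ± 1.66 FPKM, Jun at 14.3 ± 1.15, Egr1 at 14.2 ± 2.03, Junb at 9.89 ± 2.16, Nr4a1 at 7.88 ± 1.40, Npas4 at 5.28 ± 0.935, Arc at 5.18 ± 0.640, Dusp1 at 4.41 ± 0.641, Fosb at 1.39 ± 0.274 and Egr2 at 0.572 ± 0.137 FPKM (SD, n = 4). Neighbours whose ranges were apart were Fos and Jun, Nr4a1 and Npas4, Dusp1 and Fosb, and Fosb and Egr2. In vehicle libraries the order was Fos at 15.5 ± 6.47 FPKM, Jun at 13.9 ± 1.45, Egr1 at 13.4 ± 4.22, Nr4a1 at 10.3 ± 3.14, Junb at 10.1 ± 3.13, Arc at 6.60 ± 0.490, Npas4 at 5.19 ± 1.06, Dusp1 at 4.83 ± 1.06, Fosb at 0.852 ± 0.493 and Egr2 at 0.434 ± 0.213 FPKM (SD, n = 4). Of these neighbours the ranges of Dusp1 and Fosb alone were apart. Nr4a1 and Junb, and Arc and Npas4, stood in the opposite order in the 2 groups, with overlapping ranges in both.

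Sex was examined in a fit with 4 groups, treatment by sex, of 2 libraries each. Within females 0 of 10 genes were called, against 61 of all tested genes (0.361%), none reached an unadjusted p under 0.05 (9.56% of all tested genes did), and DESeq2 called 0 (2.51% of all). Nr4a1 came nearest, at 28.5 and 30.7 CPM in PLX3397 females and 45.5 and 52.2 CPM in vehicle females (log2 fold change −0.72 ± 0.31, edgeR adjusted p = 0.529). Within males 0 of 10 were called, against 260 of all tested genes (1.54%). At an unadjusted p under 0.05, which 13.6% of all tested genes reached, stood Fosb, at 9.19 and 12.7 CPM in PLX3397 males and 5.03 and 1.71 CPM in vehicle males (log2 fold change 1.70 ± 0.47, edgeR adjusted p = 0.183), and Arc (−0.45 ± 0.14, edgeR adjusted p = 0.219). Without vehicle M2, when vehicle M1 alone stood for the vehicle males and was assumed to vary like the other groups, the value within males was 1.12 for Fosb (edgeR adjusted p = 0.253), 0.15 for Fos and −0.56 for Arc (edgeR adjusted p = 0.315). DESeq2 gave Fosb an adjusted p of 0.00279 within males, where it called 4.94% of all tested genes. Without vehicle M1, when vehicle M2 was the lone vehicle male, the log2 fold change within males was 1.60 for Fos and 2.68 for Fosb. Both values rest on the library singled out as low after its values were seen.

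The treatment difference was not shown to differ between the sexes for any of the 10 genes, with 0 called against 13 of all tested genes (0.077%), and 0 called by DESeq2 against 0.852%. Fosb alone had an unadjusted p under 0.05, which 6.01% of all tested genes reached, with a difference of log2 fold changes, males minus females, of 1.66 ± 0.65 (edgeR adjusted p = 0.820). Without vehicle M2 that difference was 1.08 (edgeR adjusted p = 0.818). Between females and males over both treatments 0 of 10 were called, against 10 of all tested genes (0.0592%), and 0 by DESeq2 against 0.308%. Jun alone had an unadjusted p under 0.05, which 4.99% of all tested genes reached, with a log2 difference, females minus males, of 0.22 ± 0.05 (edgeR adjusted p = 0.933).

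Related genes were followed in lists drawn up by function. By the edgeR test 0.308% of all tested genes rose and 1.83% fell in PLX3397 at an adjusted p under 0.05. Of 38 tested genes in a list of other rapid primary-response genes, 0 rose and 0 fell in PLX3397 (median log2 fold change 0.07, against −0.0025 over all tested genes). Without vehicle M2 the median of the list was −0.0027. At an unadjusted p under 0.05, 3 of the 38 were higher and 2 lower, against 7.24% and 9% of all tested genes. DESeq2 called 1, Homer1, against 6.51%. Homer1, whose short activity-induced form loosens the postsynaptic scaffold, had a log2 fold change of 0.31 (edgeR adjusted p = 0.158), and Rgs2, an inhibitor of Gq signalling, one of 0.22 (edgeR adjusted p = 0.185). Ier5 and Ier3 had values of −0.42 and 0.31 (edgeR adjusted p = 0.225 and 0.229). Vehicle M2 was the lowest library for 17 of the 38, against 13.9% of all tested genes. Among the 17 were Fosl2, Egr3, Egr4, Nr4a3, Sik1 and Per1, which were picked out after their values were seen. Fosl2, another FOS relative, stood at 12.7 CPM in vehicle M2 and 19.4 to 45.1 CPM in the other vehicle libraries, and Nr4a2, a relative of Nr4a1, at 15.4 CPM in vehicle M2 and 6.75 to 26.7 CPM in the others.

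Among 19 delayed activity-regulated genes 1 rose and 0 fell (median log2 fold change 0.11). Of these, 4 were higher and 0 lower at an unadjusted p under 0.05, against 7.24% and 9% of all tested genes. DESeq2 called 2, against 6.51%. The one that rose was Rgs4, an inhibitor of G protein signalling in neurons, at 259 ± 6.83 CPM in PLX3397 and 210 ± 16.0 CPM in vehicle libraries (SD, n = 4 each), a log2 fold change of 0.31 (adjusted p = 0.0304, edgeR). Without vehicle M2 it was 0.27 and missed the threshold (adjusted p = 0.0829). The neuronal marker sum was higher in the same PLX3397 libraries, as given with Arc, and its part in the Rgs4 values was not tested. Acvr1c, Tac1 and Nptx2 had log2 fold changes of 0.41, 0.19 and 0.18 and missed the threshold (edgeR adjusted p = 0.0992, 0.196 and 0.259). Vehicle M2 was the lowest library for 7 of the 19, against 13.9% of all tested genes.

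Of 12 AP-1 partners and relatives 0 rose and 1 fell (median −0.04). At an unadjusted p under 0.05, 0 were higher and 1 lower, against 7.24% and 9% of all tested genes. DESeq2 called 1, against 6.51%. The gene that fell was Maf, at 11.6 ± 0.727 CPM in PLX3397 and 17.0 ± 1.28 CPM in vehicle libraries (SD, n = 4 each), a log2 fold change of −0.55 (adjusted p = 0.00927, edgeR). Maf encodes a leucine zipper factor that macrophages and microglia also express, and the microglial marker sum was lower in the same PLX3397 libraries, but its part in these values was not tested. Jund and Mafk had log2 fold changes of −0.14 and 0.14 (edgeR adjusted p = 0.331 and 0.426).

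Of the regulators that act before the immediate early genes, 21 were upstream transcription factors or coactivators. Of these 21 upstream transcription regulators 0 rose and 0 fell (median 0.02). At an unadjusted p under 0.05, 1 was higher and 3 lower, against 7.24% and 9% of all tested genes. DESeq2 called 1, Mrtfb, against 6.51%. Mrtfb, a coactivator of serum response factor, had a log2 fold change of 0.24 (edgeR adjusted p = 0.148), Elk3 and Atf1 had −0.34 and −0.37 (edgeR adjusted p = 0.173 and 0.234), and Creb1 had −1.19, with PLX3397 libraries between 7.18 and 39.9 CPM and vehicle libraries between 28.8 and 40.6 CPM (edgeR adjusted p = 0.270). Without PLX3397 F2 the value of Creb1 was −1.88 and passed the threshold (edgeR adjusted p = 0.0290). Of 30 genes of calcium and MAP kinase signalling to the nucleus 0 rose and 1 fell (median 0.07). At an unadjusted p under 0.05, 5 were higher and 1 lower, against 7.24% and 9% of all tested genes. DESeq2 called 1, against 6.51%. The gene that fell was Rps6ka1, a ribosomal S6 kinase that ERK activates, at 14.8 ± 1.64 CPM in PLX3397 and 19.6 ± 0.903 CPM in vehicle libraries (SD, n = 4 each), a log2 fold change of −0.40 (adjusted p = 0.0481, edgeR).

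Of 7 further MAP kinase phosphatases 0 rose and 1 fell (median −0.04). At an unadjusted p under 0.05, 0 were higher and 1 lower, against 7.24% and 9% of all tested genes. DESeq2 called 1, against 6.51%. Dusp10, a phosphatase of the stress kinases JNK and p38, stood at 5.76 ± 0.415 CPM in PLX3397 and 9.05 ± 0.905 CPM in vehicle libraries (SD, n = 4 each), a log2 fold change of −0.65 (adjusted p = 0.0334, edgeR). Another list grouped 8 genes as possible brakes on early growth response factors: Nab1, Nab2, Id1, Id2, Id3, Id4, Egr3 and Egr4. Whether they restrain these factors was not tested. Of the 8, 0 rose and 0 fell (median −0.04). Id2 and Id3 had log2 fold changes of −0.42 and −0.46 (edgeR adjusted p = 0.0972 and 0.132). These 2 were lower at an unadjusted p under 0.05, against 9% of all tested genes, and were called by DESeq2, against 6.51%. Of 17 genes grouped as partners of the Arc protein 0 rose and 1 fell (median −0.03). Whether each product binds Arc was not tested. Of these, 3 were higher and 3 lower at an unadjusted p under 0.05, against 7.24% and 9% of all tested genes. DESeq2 called 2 higher and 3 lower, against 6.51% of all tested genes in either direction. Sh3gl3, an endophilin that binds Arc at sites of endocytosis, stood at 36.3 ± 1.34 CPM in PLX3397 and 52.4 ± 3.11 CPM in vehicle libraries (SD, n = 4 each), a log2 fold change of −0.53 (adjusted p = 0.00704, edgeR). The 6 oligodendrocyte lineage markers summed to 1617 to 3419 CPM in PLX3397 and 4402 to 6708 CPM in vehicle libraries, with 2 of the 6 lower by the edgeR test and their part in this and the other lower values of these lists was not tested. Rnf216, a ubiquitin ligase of Arc, had a log2 fold change of 0.22 (edgeR adjusted p = 0.0697).

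The calls in these lists differed in how far they held. Maf and Sh3gl3 were called in 17 of 19 alternative settings each, including all 8 fits that left out 1 library. Rgs4 was called in 11 settings and in 2 of those 8 fits, Dusp10 in 8 settings and Rps6ka1 in 4, and neither Dusp10 nor Rps6ka1 was called in any of the 8 fits that left out a library. Over the 19 settings the highest adjusted p was 0.191 for Rgs4, 0.133 for Dusp10 and 0.220 for Rps6ka1, with the direction kept throughout. Without vehicle M2 the calls in all the lists were Maf, Sh3gl3 and Mt1.

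The remaining lists respond to stress. None of 13 heat shock genes was called, although the log2 fold change was positive for 13 of 13, against 49.4% of all tested genes (median 0.19, adjusted p from edgeR 0.0860 for Hsph1 and 0.0942 for Dnaja1, the smallest). Of them 7 were higher at an unadjusted p under 0.05, against 7.24% of all tested genes, and DESeq2 called 4, against 6.51%. Of 16 glucocorticoid-responsive genes 0 rose and 0 fell (median 0.30, positive for 13 of 16). When each library was left out in turn the median ran between 0.15 and 0.36, and it was 0.16 without vehicle M2. Of the 16 genes 5 were higher and 1 lower at an unadjusted p under 0.05, against 7.24% and 9% of all tested genes, and DESeq2 called 3, against 6.51%. Mt1, a metallothionein, had a log2 fold change of 0.35 (edgeR adjusted p = 0.104), and Plin4 one of 0.53 (edgeR adjusted p = 0.121). Without vehicle M2 that of Mt1 was 0.44 and passed the threshold (edgeR adjusted p = 0.0436). Vehicle M2 was the lowest library for 7 of the 13 heat shock genes and 6 of the 16 glucocorticoid-responsive genes, against 13.9% of all tested genes.

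On mm10, the build of the files, Fos spans chr12:85473890-85477273, Fosb chr7:19302696-19310051, Jun chr4:95049034-95052222, Junb chr8:84976910-84978718, Egr1 chr18:34859823-34864984, Egr2 chr10:67535475-67542188, Arc chr15:74669083-74672570, Nr4a1 chr15:101254269-101274795, Npas4 chr19:4984355-4990316 and Dusp1 chr17:26505590-26562128. Fos, Egr1, Egr2 and Nr4a1 lie on the plus strand and the other 6 on the minus strand. Counts per gene pool all exons and isoforms, so the truncated form of Fosb was not separated from the full-length one.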

How the data were processed

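RNA of 8 mouse hypothalami was sequenced after removal of ribosomal RNA, per the labels' protocols. HISAT2, StringTie, limma, DESeq2 and bcl2fastq 2.0 stand in the submitters' processing notes, with build mm10 and no roles or parameters. The deposited tables give counts of reads per gene and FPKM. No source states whether counting used strand.

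The 10 genes and the gene lists were chosen with earlier results of these data known. Genes with a mean of at least 0.5 FPKM were tested (16894; 38507 were left out). Deposited counts were tested with edgeR 4.0.16 (R 4.3.3, TMM scaling, quasi-likelihood test, sex as a covariate, adjusted p under 0.05 over all tested genes). Standard errors were taken as the log2 fold change over the root of the F statistic. A 4-group fit gave the values within each sex. Levels are CPM on TMM-scaled library sizes, and spreads use log2(CPM + 0.5). The sex letters matched sex-linked expression in 8 of 8 libraries, and no library pair of a group agreed within sampling noise. The libraries come from separate hypothalami, and litter is not given.

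Alternatives were no filter, at least 1 FPKM, median-ratio scaling, DESeq2 1.42.0, no sex covariate, a replicate block, limma-trend (limma 3.58.1) on log2 of the deposited FPKM plus 0.5, 0.1 or 1, leaving out each library, leaving out vehicle F1 with PLX3397 M2, and, added after seeing the data, bias-adjusted dispersion. One gene of the lists is not reported here and was left out of its list. Named genes were the 10, the 10 most alike, and up to 4 of each list with the smallest p; other names were chosen after their values were seen. The fits were tested on simulated data.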

Additional observations from a re-analysis of the deposited data

How the results depend on the processing

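Of 189 fold changes of the 10 genes recomputed under alternatives, 176 kept their direction and side of the threshold, 12 reversed and 1, Arc with DESeq2 (−0.34), passed the threshold. The reversed values were all of small, uncalled differences: Junb was −0.015 without the sex covariate, Junb and Npas4 were −0.17 and −0.15 without vehicle F1 and PLX3397 M2, and when each library was left out in turn Junb ran between −0.24 and 0.15, Egr1 between −0.11 and 0.32, Npas4 between −0.10 and 0.16 and Dusp1 between −0.24 and 0.0069. The cause was not tested. Of all tested genes 362 were called, against 1099 with DESeq2, 123 without vehicle F1 and PLX3397 M2 and 138 to 361 when each library was left out. Of the 10 genes, DESeq2 called 1 over all libraries and 1 within males (Fosb), and leaving out each library gave 0 over all libraries and 0 to 2 within males. No other alternative called any of the 10. Egr2 has no value at a filter of 1 FPKM, which it did not pass.

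Deviations of same-numbered libraries from their group means correlated at 0.077, 0.101, 0.083 and 0.03. Those of differently numbered libraries correlated at −0.098 to 0.088. Whether the numbers mark any pairing cannot be told from values this small. With the replicate block 79 genes were called and 0 of the 10, with Arc at −0.35 (adjusted p = 0.274).

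The residual SD of Egr2 was 0.63 with a pseudocount of 0.1 and 0.27 on log2(FPKM + 0.5), that of Fosb 0.44 on the same FPKM scale, that of Jun 0.13 without sex in the fit, and that of Arc 0.09 without PLX3397 M1. Counting depth limits Egr2 most, which had 33 reads in vehicle M2.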
